A study of Mus musculus with 6 samples.

Results

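The 10 genes described here encode the subunits of the transcription factor NF-κB (Rela, Rel, Relb, Nfkb1 and Nfkb2) and 5 of its inhibitors (Nfkbia, Nfkbie, Nfkbid, Nfkbiz and Tnfaip3). They were chosen by gene symbol from a table of 14490 genes, and all 10 were found there. Their mRNA was measured by mRNA-seq in splenic NK cells (natural killer cells, lymphocytes that kill tumour and infected cells) of WT mice (Mettl3fl/fl) and of cKO mice (Ncr1Cre-Mettl3fl/fl), with 3 samples per genotype. METTL3 is the catalytic subunit of the complex that writes the RNA modification m6A. The study asked which genes are differentially expressed when METTL3 is missing from NK cells. Both genotypes were on the C57BL/6 strain and carried the loxP-flanked Mettl3 alleles, and the mice were 6 to 10 weeks old. In cKO mice Cre is expressed from the Ncr1 locus, which is active in cells that carry the receptor NKp46. WT mice lacked this Cre allele, so the loss of Mettl3 and the presence of Cre at Ncr1 cannot be told apart. The NK cells were purified by flow sorting. No label said whether each sample came from a separate mouse, so p-values measure the spread between these samples.

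NF-κB is a family of dimers that wait in the cytoplasm, held there by inhibitor proteins of the IκB family. Receptor signals activate the IκB kinase complex, the IκB proteins are degraded, and dimers such as that of p65 (Rela) and p50 (from Nfkb1) enter the nucleus. In the non-canonical branch, the p100 precursor (Nfkb2) is processed to p52, which pairs with RELB. Several of the inhibitor genes are themselves NF-κB targets and close a negative feedback loop. In NK cells the pathway acts downstream of IL-18, TNF-family and Toll-like receptors and of activating receptors, and it drives cytokine and survival genes.

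Because the members include targets of the factor they form, the DNA around their start sites was searched for the κB consensus, the site that NF-κB dimers bind. RefSeq promoter windows on GRCm38.p6, from 250 bases before to 50 bases after a start site, were used for 7 of the members, with 12 windows in all. No window was used for Nfkb1, Nfkbiz and Relb. A match to the κB consensus on either strand was found in 8 of the 12 windows and in 6 of the 7 genes. Among all 32851 windows of the table, 2779 (8.46%) held a match, and among its 27025 genes 2581 (9.55%) did. Rela was the member with a window and no match in it. The 4 windows shown are from Nfkbie and Nfkb2, which fell most in cKO, and from Nfkbia and Tnfaip3, which moved least among the inhibitors. Nfkb2 and Tnfaip3 had further windows, and the window with the most matches of each is shown. The other window of Tnfaip3 held 0 matches. Each window shown is written on the strand of its gene, 5′ to 3′, and the capitals mark the matches, which in Nfkb2 include overlapping ones.
Nfkbie, chr17:45555450-45555749, plus strand: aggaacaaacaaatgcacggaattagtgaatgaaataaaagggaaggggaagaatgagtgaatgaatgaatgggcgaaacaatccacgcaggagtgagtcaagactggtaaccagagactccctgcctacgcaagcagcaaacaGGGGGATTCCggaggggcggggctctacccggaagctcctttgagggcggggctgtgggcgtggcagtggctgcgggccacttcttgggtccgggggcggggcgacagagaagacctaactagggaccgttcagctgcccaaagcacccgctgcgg
Nfkb2, chr19:46304487-46304786, plus strand: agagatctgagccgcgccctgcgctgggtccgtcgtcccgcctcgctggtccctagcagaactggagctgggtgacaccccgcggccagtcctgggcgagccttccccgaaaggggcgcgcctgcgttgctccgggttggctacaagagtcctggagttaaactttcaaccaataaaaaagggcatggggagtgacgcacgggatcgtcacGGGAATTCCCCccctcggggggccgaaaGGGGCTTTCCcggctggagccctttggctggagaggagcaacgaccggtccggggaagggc
Nfkbia, chr12:55492598-55492897, minus strand: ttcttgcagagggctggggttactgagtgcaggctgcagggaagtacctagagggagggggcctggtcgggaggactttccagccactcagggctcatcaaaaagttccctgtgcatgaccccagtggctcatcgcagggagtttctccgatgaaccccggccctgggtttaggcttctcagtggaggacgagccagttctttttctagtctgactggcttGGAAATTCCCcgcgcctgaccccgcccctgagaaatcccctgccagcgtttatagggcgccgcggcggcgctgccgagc
Tnfaip3, chr10:19015361-19015660, minus strand: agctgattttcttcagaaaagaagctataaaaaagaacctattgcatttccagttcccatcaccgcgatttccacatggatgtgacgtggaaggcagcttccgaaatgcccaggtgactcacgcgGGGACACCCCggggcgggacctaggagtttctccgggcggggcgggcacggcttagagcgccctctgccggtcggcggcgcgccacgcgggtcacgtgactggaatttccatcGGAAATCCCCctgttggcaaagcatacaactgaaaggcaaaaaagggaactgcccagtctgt

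In Nfkbia the match GGAAATTCCC begins 29 bases before the start site, and in Nfkbie GGGGGATTCC begins 106 bases before it. The Rel window (chromosome 11, 23770920 to 23771219) held GGGAAATCCC at 92 bases before the start site, together with a match shifted by 1 base. A window of Nfkbid (chromosome 7, 30422156 to 30422455) held GGGACTTCCC at 226 bases and GGAATTCCCC at 181 bases before its start site. These matches describe letters in the reference genome. Binding of NF-κB was not measured in these samples.

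The values are normalized counts, which are reads per gene after division by a size factor that DESeq2 gave each sample. All values were whole multiples of the worth of 1 read (tolerance 0.01 reads), and the samples held between 55965515 and 71464042 reads on the listed genes. Mettl3 itself fell in cKO, with means of 1251 ± 56.0 (SD, n = 3) normalized counts in WT and 334 ± 61.9 (SD, n = 3) without METTL3. The NK cell markers Klrb1c and Prf1 were abundant in every sample, with means of 37458 and 139576 normalized counts in WT and 31025 and 122826 in cKO. Ncr1, the locus that carries Cre in cKO, had 22394 ± 286 (SD, n = 3) normalized counts in WT and 16918 ± 230 (SD, n = 3) in cKO samples. Genotypes were compared by limma on log2(normalized count + 1), two-sided, with p-values corrected after Benjamini and Hochberg across the 14490 genes.

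Most of the NF-κB subunit and inhibitor transcripts were lower in METTL3-deficient NK cells. Of the 10 genes, 8 fell with a limma adjusted p under 0.05 and 0 rose, while 18.8% of all genes fell and 17.8% rose, or 36.6% together. The 8 were Nfkbie, Nfkb2, Relb, Rela, Nfkbid, Nfkbiz, Rel and Nfkbia, in order of the size of the fall. Nfkbia, the least, fell by 13.6% and Nfkbie, the most, fell by 34.3%. Tnfaip3 lay at the threshold and Nfkb1 did not pass it. In 9 of the 10 genes every cKO sample lay below every WT sample, which was so for 23.0% of all genes. The study's rule asked for an unadjusted P under 0.05 and a change of more than 1 on the log2 scale in either direction. Applied here to limma values rather than those of DESeq2, it was met by 0 members and by 254 of all genes (1.75%). The median log2 fold change was −0.36 over the 10 genes and 0.0014 over all genes.

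**Figure D1:**
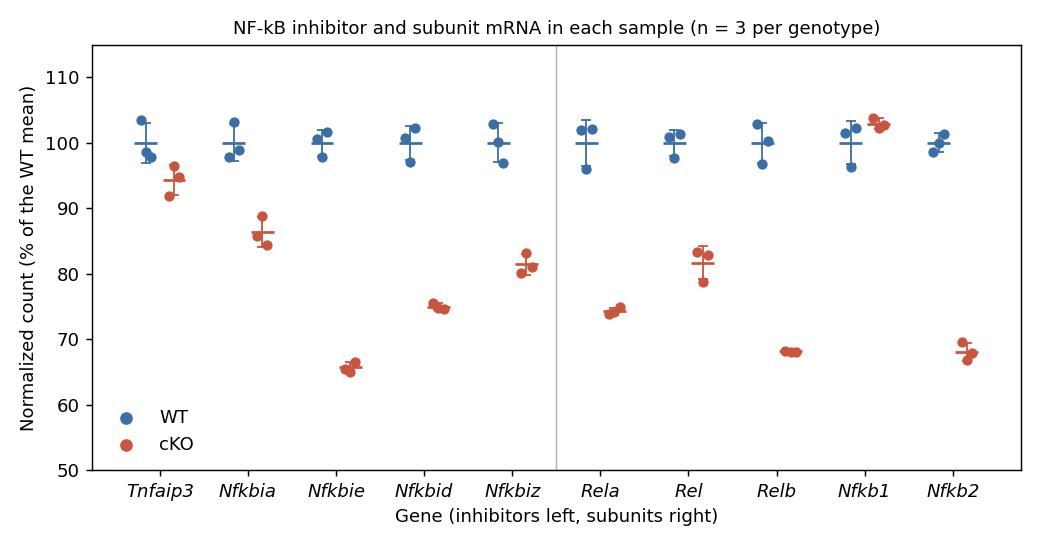
Normalized count of each gene in each sample as a percentage of its WT mean (vertical axis, starting at 50%), with inhibitors on the left and subunits on the right. Points are samples, horizontal lines the mean of 3 samples and bars the SD. The cKO points lie below the WT points in 9 genes, and at or above the upper end of the WT points in Nfkb1.

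Among the inhibitors, those that hold NF-κB in the cytoplasm fell unequally. Nfkbie, which encodes IκBε, reached 30460, 29639 and 30812 normalized counts in the 3 WT samples, given here and for all other genes in the order of their replicate numbers, and 19839, 19719 and 20169 in the 3 cKO samples. All cKO samples were below all WT samples by more than the spread within either genotype. The log2 fold change between cKO and WT was −0.61 (standard error, SE, 0.0298, 95% confidence interval, CI, −0.67 to −0.54, adjusted p by limma 1.01e-14), the largest fall of the 10. Nfkbia encodes IκBα, the main and fastest resynthesised inhibitor of p65-containing dimers. Its normalized counts were 264902, 279404 and 267907 in WT and 232298, 240530 and 228680 in cKO. The groups did not overlap, and the log2 fold change was −0.21 (SE 0.0317, 95% CI −0.28 to −0.15, adjusted p by limma 6.55e-06).

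The nuclear inhibitors, which act on NF-κB bound to DNA and can also activate some genes, fell to an intermediate degree. Nfkbid, which encodes IκBNS, had 93402, 90067 and 94821 normalized counts in WT and 70077, 69324 and 69279 in cKO. The cKO values lay close together and well below the WT values, with a log2 fold change of −0.41 (SE 0.0293, adjusted p by limma 1.47e-11). Nfkbiz, which encodes IκBζ, had 171134, 166441 and 161172 normalized counts in WT and 133185, 138402 and 134706 in cKO. Its groups did not overlap, and its log2 fold change was −0.30 (SE 0.0307, adjusted p by limma 1.95e-08).

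Tnfaip3 encodes A20, a ubiquitin-editing enzyme that stops signalling from TNF and Toll-like receptors to the IκB kinases. With a mean of 672661 normalized counts over the 6 samples it ranked 1 of the 14490 genes by count. It had 716573, 682851 and 677015 normalized counts in WT and 636085, 667450 and 655994 in cKO. The genotypes did not overlap, but the closest samples of the 2 genotypes differed by less than the spread within WT. The log2 fold change was −0.083 (SE 0.0336, 95% CI −0.15 to −0.014), with a limma adjusted p of 0.053, just above the threshold. Over the alternative settings its adjusted p lay between 0.00634 and 0.374, below 0.05 in 6 of 13 settings. The setting without a filter, counted among the 13, repeats the main fit.

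Among the subunits, those of the non-canonical branch had the largest estimated falls. Nfkb2, which encodes p100 and its product p52, had 34219, 34741 and 35215 normalized counts in WT and 24157, 23213 and 23585 in cKO. The groups were far apart relative to their spread, with a log2 fold change of −0.55 (SE 0.0297, 95% CI −0.62 to −0.49, adjusted p by limma 5.07e-14). Relb, whose product pairs with p52, had 18935, 17825 and 18474 normalized counts in WT and 12559, 12540 and 12538 in cKO. Its log2 fold change was also −0.55 (SE 0.0318, 95% CI −0.62 to −0.49, adjusted p by limma 2.09e-13). The 3 cKO values of Relb had a coefficient of variation of 0.0908%, less than the 0.804% expected from counting alone at its mean over all 6 samples. The moderated standard error of limma, which borrows from other genes, was used.

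Rela and Rel, which encode the subunits p65 and c-Rel, also fell. Rela had 28848, 27150 and 28873 normalized counts in WT and 20902, 20966 and 21180 in cKO, without overlap. The log2 fold change was −0.43 (SE 0.0312, 95% CI −0.49 to −0.36, adjusted p by limma 2.57e-11). Rel had 24725, 23950 and 24825 normalized counts in WT and 20434, 19306 and 20315 in cKO, again without overlap. Its log2 fold change was −0.29 (SE 0.0315, 95% CI −0.36 to −0.23, adjusted p by limma 3.73e-08).

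Nfkb1, which encodes the precursor p105 and the subunit p50, was the exception. It had 19259, 18258 and 19391 normalized counts in WT and 19701, 19388 and 19475 in cKO. The cKO values lay at or above the upper end of the WT values, with 1 overlapping pair. The log2 fold change was 0.042 (SE 0.0315, adjusted p by limma 0.325), and its 95% confidence interval of −0.023 to 0.11 leaves out a fall of the size seen in any of the 8 called genes. By the exact permutation test, two-sided, p was 0.1 for each of the 9 genes without overlap, the smallest that 3 samples against 3 allow, and 0.2 for Nfkb1.

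**Figure D2:**
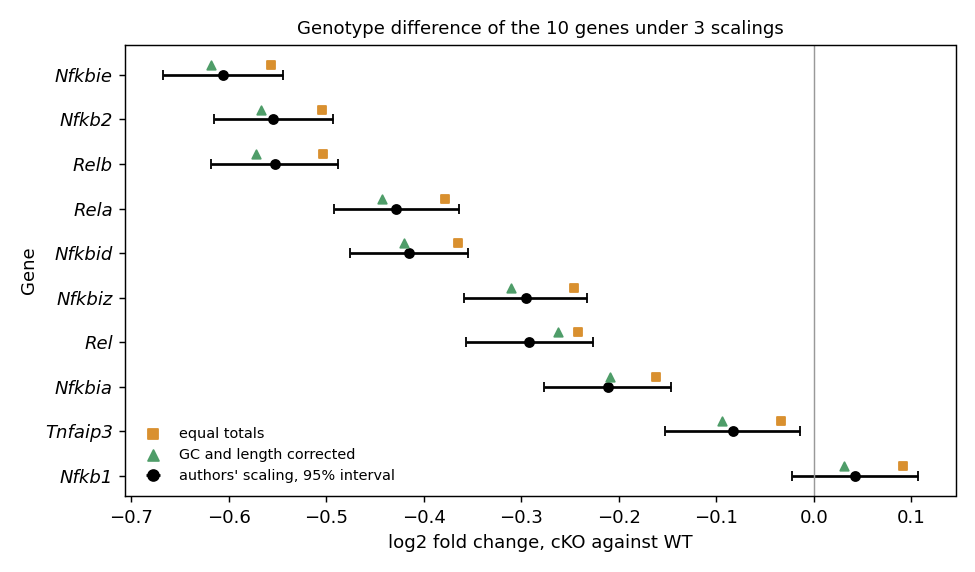
Log2 fold change of each gene, cKO against WT (horizontal axis), with the authors' scaling (black, bars are 95% confidence intervals of limma), with the samples scaled to equal totals (orange squares) and with GC content and length regressed out (green triangles). The genes run from Nfkb1 at 0.042 to Nfkbie at −0.61, and the 8 called genes stay left of 0 with each scaling.

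The unequal falls changed the proportions of the transcripts within each sample. Such ratios do not depend on how samples are scaled to each other. The ratio of all 5 inhibitors to all 5 subunits and that of Nfkbia to Rela were part of the design, and the other pairs were picked after their values were seen, so that all ratios are given without a test. The summed counts of the 5 inhibitors were 10.1, 10.2 and 9.72 times those of the 5 subunits in the 3 WT samples, and 11.2, 11.9 and 11.4 times in cKO. Nfkbia over Rela rose likewise, from 9.18, 10.3 and 9.28 in WT to 11.1, 11.5 and 10.8 in cKO. In both ratios the genotypes did not overlap. The inhibitor sum depends on Tnfaip3, its most abundant gene. The log2 difference of the ratio was 0.20 with all 10 genes, 0.080 without Tnfaip3 (ratios of 4.44, 4.64 and 4.38 in WT and 4.66, 4.90 and 4.66 in cKO, without overlap) and 0.11 with Nfkbia, Nfkbie and Tnfaip3 over Rela, Rel and Nfkb1.

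Among the plotted ratios Nfkb2 over Nfkb1 moved most, from 1.78, 1.90 and 1.82 in WT to 1.23, 1.20 and 1.21 in cKO. Rela over Nfkb1, the transcripts of the classical p65 and p50 pair, went from 1.49 ± 0.0058 (SD, n = 3) to 1.08 ± 0.0139 (SD, n = 3). Nfkbie over Nfkbia, the 2 cytoplasmic inhibitors, went from 0.115, 0.106 and 0.115 to 0.0854, 0.0820 and 0.0882. In contrast, Relb over Nfkb2, the transcripts of the non-canonical pair, had values of 0.553, 0.513 and 0.525 in WT that overlapped those of 0.520, 0.540 and 0.532 in cKO.

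**Figure D3:**
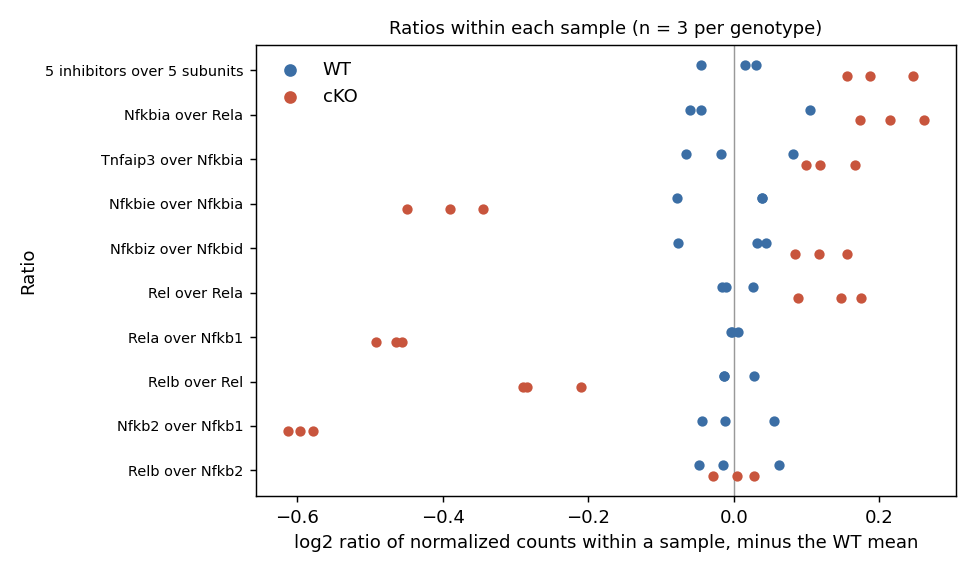
Ratios of normalized counts within each sample on the log2 scale, minus the WT mean of that ratio (horizontal axis), for 10 ratios (vertical axis). Points are the 3 samples of each genotype, WT in blue and cKO in red. Relb over Nfkb2 is the ratio in which the genotypes overlap, and Nfkb2 over Nfkb1 lies farthest from the WT mean, with a difference of −0.60 on the log2 scale.

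Compared per length, 4 of the 5 inhibitors (Nfkbia, Tnfaip3, Nfkbid and Nfkbiz) stood well above all subunits, and Nfkbie lay close to Rela. Per kilobase of annotated exon, Nfkbia had 168160 ± 4754 (SD, n = 3) normalized counts in WT, and Tnfaip3 had 95785 ± 2955 (SD, n = 3). Nfkbid followed with 39541 per kilobase, Nfkbiz with 33131 and Nfkbie with 9952. The subunits had 9209 per kilobase for Rela, 7575 for Nfkb2, 4739 for Relb, 3282 for Rel and 1573 for Nfkb1. On this scale Nfkbia was rank 9 and Tnfaip3 rank 23 among the genes with a known length. No neighbours in this order overlapped over the 3 WT samples. In cKO the order was the same except that Rela, at 6841 per kilobase, stood above Nfkbie, at 6538. The lengths matter here, since Nfkb1 has 12061 bases of annotated exon and 4117 in its longest coding transcript. With the longest coding transcript of each gene as its length, Nfkb1 stood above Rel in both genotypes, at 4608 against 3282 per kilobase in WT, Nfkbie stood above Rela in both genotypes, at 8176 against 7738 per kilobase in cKO, and Nfkbia and Tnfaip3 overlapped in cKO.

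The genes are abundant, and abundant genes as a class tended to be lower in cKO on the authors' scaling. Among the 791 genes with a mean at least that of Relb, the least abundant member, 386 (48.8%) were called lower, and their median log2 fold change was −0.079. A fall as large as the median of the 10 genes or larger was found in 49 of these 791 genes (6.19%). The 791 include the 10 members, so the members at or below their own median are among the 49. Of the 13699 less abundant genes, 1308 (9.55%) had such a fall. Scaling to equal totals rather than by size factors moved all genes up by 0.050 on the log2 scale, and 287 of the 791 genes (36.3%) were called lower. Under that scaling 8 members remained lower, from −0.16 for Nfkbia to −0.56 for Nfkbie, and Nfkb1 was called higher, at 0.091 (limma adjusted p = 0.0209). With GC content and length regressed out, 9 members were called lower.

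**Figure D4:**
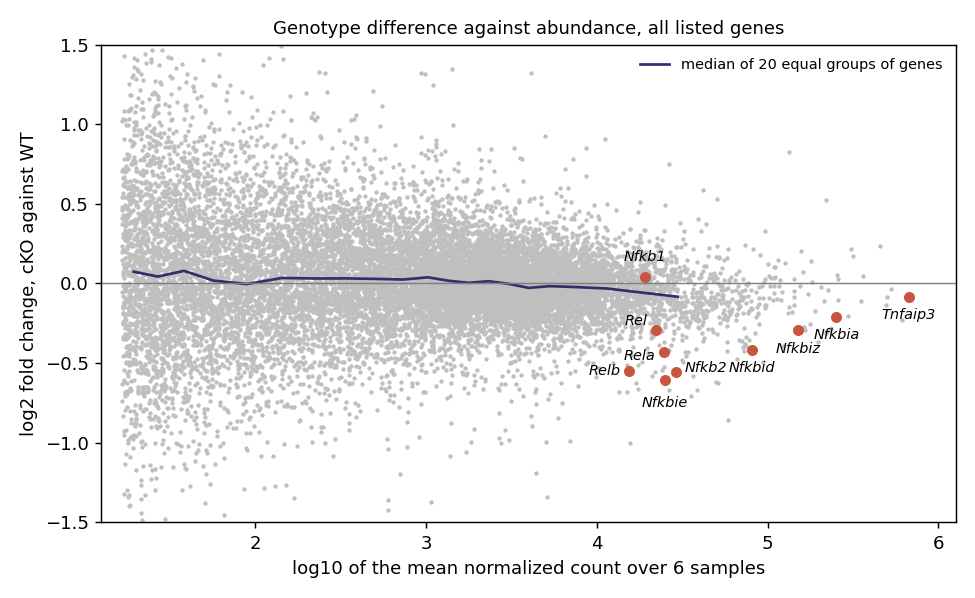
Log2 fold change, cKO against WT (vertical axis), against the log10 of the mean normalized count over the 6 samples (horizontal axis) for all 14490 genes (grey, 48 of which lie outside the plotted range of −1.5 to 1.5) and the 10 genes (red). The dark line joins the medians of 20 groups of genes of equal size by abundance and drops below 0 at the abundant end, and 9 of the 10 red points lie below the zero line.

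Genes that carry the signal to NF-κB were examined next, from a list of 36. Of these, 14 fell, 4 rose and 18 did not pass the test, with a median log2 fold change of −0.041. For this list and those below, the shares over all 14490 genes were 18.8% lower and 17.8% higher. Among the 791 genes as abundant as the members, 48.8% were lower and 18.1% higher. With equal totals 14 fell, 9 rose and the median turned to 0.0086. Of the subunits of the IκB kinase, Chuk, which encodes IKKα, fell by 0.14 on the log2 scale (limma adjusted p = 0.00377), and Ikbkb (IKKβ) had −0.0044 (limma adjusted p = 0.942) and Ikbkg (NEMO) 0.068 (limma adjusted p = 0.254). The largest falls were those of Traf1, an adaptor of TNF receptors, with −0.67, Ripk2, the kinase of the NOD receptors, with −0.54, Birc3, the ubiquitin ligase cIAP2, with −0.52, and Map3k14, which encodes the kinase NIK of the non-canonical branch, with −0.36. Traf1 had 47685 ± 184 (SD, n = 3) normalized counts in WT and 30031 ± 55.8 (SD, n = 3) in cKO samples. The 4 genes that rose were Ripk1, a kinase downstream of the TNF receptor, with 0.34, Prkcq, which encodes protein kinase C theta, with 0.24, Sharpin, a subunit of the linear ubiquitin ligase, with 0.22, and Ikbke with 0.13.

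Of 29 other inhibitors and negative regulators with values, 7 fell, 7 rose and 15 did not pass, with a median of −0.048 that turned to 0.0018 with equal totals (7 fell and 9 rose). The IκB family members outside the 10 genes both fell. Bcl3, a nuclear IκB protein that binds p50 and p52 dimers, fell from a WT mean of 6604 ± 191 (SD, n = 3) to a cKO mean of 4079 ± 199 (SD, n = 3) normalized counts, or −0.70 on the log2 scale (SE 0.0407, adjusted p by limma 3.09e-13). Nfkbib, which encodes IκBβ, fell with −0.21 (limma adjusted p = 2.15e-05). Zc3h12a, an RNase that degrades inflammatory transcripts, fell with −0.37, Tax1bp1 with −0.27 and Tnip1 with −0.25. Nlrx1 rose with 0.35, Tnfaip8l2 with 0.29, Tnip2 with 0.27 and the deubiquitinase gene Otud7b with 0.22. Cyld, another deubiquitinase of the pathway, had −0.029 (limma adjusted p = 0.564).

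Of 25 receptors that signal to NF-κB, 6 fell, 3 rose and 16 did not pass, with a median of 0.029. With equal totals 4 fell and 4 rose. Those of the TNF receptor family that fell included Tnfrsf18 (GITR) with −0.59, Tnfrsf9 (4-1BB) with −0.58 and Tnfrsf1b (TNFR2) with −0.48. Tnfrsf1b had 36899 ± 518 (SD, n = 3) normalized counts in WT and 26415 ± 144 (SD, n = 3) in cKO samples. Tlr6 fell with −0.85 at low counts, 118 in WT and 65.3 in cKO. Tlr2 rose with 0.61 and Tnfrsf13c, the BAFF receptor of B cells, with 0.52, again at low counts. The chains of the IL-18 receptor differed, with Il18r1 at 0.12 (limma adjusted p = 0.00439) and Il18rap at −0.12 (limma adjusted p = 0.00779).

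Listed targets of NF-κB moved in both directions. The list holds 0 of the 10 members, several of which are targets themselves. Genes counted in the lists above, such as Traf1, Bcl3 and Tnfrsf9, are also outside it. Its counts therefore depend on how the lists were divided. Of 46 target genes with values, 18 fell, 13 rose and 15 did not pass, with a median of 0.014. With equal totals 15 fell and 17 rose. The surface protein gene Cd83 fell from a WT mean of 20794 ± 188 (SD, n = 3) to a cKO mean of 10387 ± 305 (SD, n = 3) normalized counts, with a 95% CI of −1.07 to −0.94 on the log2 scale (adjusted p by limma 2.66e-18). The survival genes Bcl2a1b and Bcl2a1d fell with −1.35 and −1.02, with means of 243 and 1033 in WT and of 94.3 and 507 in cKO. They are near-identical copies of each other, so that reads may have been split between them and their separate values are uncertain. The listed gene Bcl2a1a, with means of 38.4 in WT and 31.1 in cKO, did not pass (limma adjusted p = 0.569). Il2ra, the IL-2 receptor alpha chain, fell with −0.73 at low counts, with means of 375 in WT and 223 in cKO. In the other direction, the cytokine gene Tnf rose from a WT mean of 2590 ± 110 (SD, n = 3) to a cKO mean of 4471 ± 189 (SD, n = 3) normalized counts, or 0.79 on the log2 scale (SE 0.0451, adjusted p by limma 2e-13). Ltb, which encodes lymphotoxin beta, rose with 0.64, the survival gene Bcl2 with 0.50 and the adhesion molecule gene Vcam1 with 0.29.

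**Figure D5:**
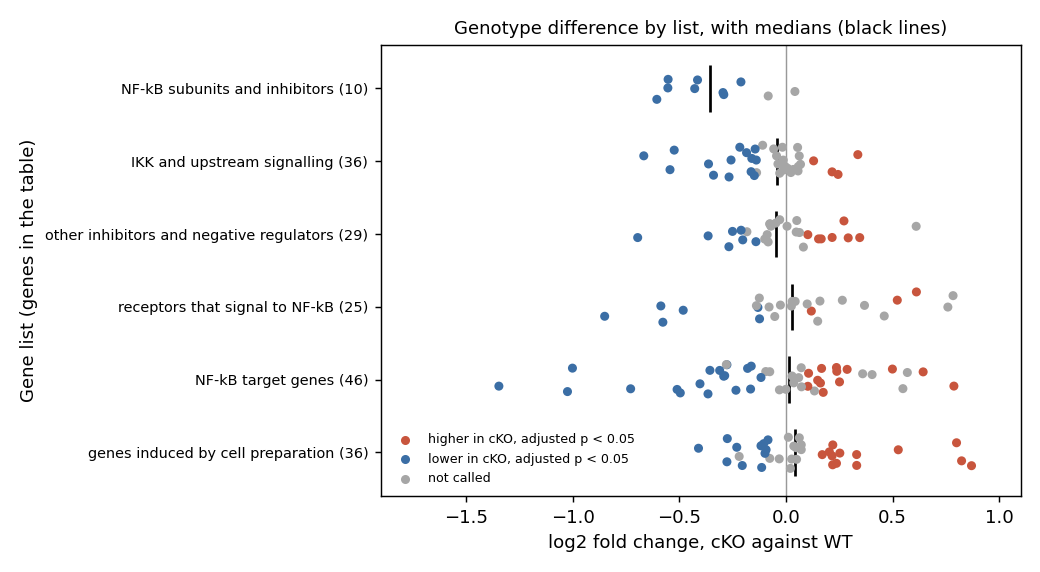
Log2 fold change, cKO against WT (horizontal axis), of each gene in the 10 subunits and inhibitors and in 5 lists (vertical axis, with the number of genes that had values). Each point is a gene, red where it was called higher, blue where called lower and grey where not called at a limma adjusted p of 0.05, and black lines are medians. The median of the 10 genes is −0.36 and those of the 5 lists lie between −0.048 and 0.042 on the authors' scaling.

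The members' transcripts, several of which are rapidly inducible, are found beside others that respond to the handling of cells. In a list of 36 genes that are commonly induced by cell preparation, 13 rose, 11 fell and 12 did not pass, with a median of 0.042. With equal totals 19 rose and 5 fell, and without cKO replicate 1 the number that fell was 7. Fos rose with 0.82 and Dusp1, a MAPK phosphatase gene, with 0.53. Nr4a3 fell with −0.41, Gadd45b with −0.28, Btg2 with −0.28 and Fosb with −0.23. Egr1 and Jun, at 0.011 and 0.050, did not pass (limma adjusted p = 0.811 and 0.219). Hspa1a and Hspa1b, near-identical heat shock genes whose separate values are uncertain, rose with 0.87 and 0.80. Whether these genes bear on the levels of the NF-κB genes was not tested.

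Markers of other spleen cells were summed in each sample, since B cells and myeloid cells also express NF-κB genes. B cell markers summed to between 1668 and 1688 normalized counts in WT and between 2224 and 2322 in cKO, and 9 of 13 were called higher, among them Cd79a (means of 201 in WT and 334 in cKO) and Ms4a1 (71.5 and 114). What B cells add to the count of a member cannot be read from such a sum. Myeloid markers summed to between 12771 and 13411 in WT and between 12634 and 13489 in cKO, with 3 of 9 higher and 2 lower, and with means for Lyz2 of 2186 in WT and 1663 in cKO and for Csf1r of 2975 and 3189. Of 12 T cell markers 4 were lower, and Cd3e had means of 151 and 166. Of 14 NK cell markers 8 were lower and 2 higher, of 7 dendritic cell markers 2 were lower and 2 higher, of 10 ILC1-like markers 2 were higher, and of 7 erythroid and platelet markers 0 were called at a limma adjusted p under 0.05. In a bulk sample, fewer cells of a type and less RNA per cell cannot be told apart, and the part of other cells in the members' falls was not tested.

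The members' transcripts differ in features that bear on RNA stability and m6A. In the longest coding transcript of GENCODE M21, the 3′ UTR of Rel held 12 copies of ATTTA, the core of AU-rich elements, a number reached by 4.18% of coding genes with a 3′ UTR. Tnfaip3 held 5, Nfkbiz and Nfkb1 4 each, Nfkbia 2, Nfkbid and Nfkb2 1 each, and Nfkbie, Rela and Relb 0, where 68.8% of coding genes held at least 1. The sequence GGACT, a frequent form of the m6A consensus, occurred 2.49 times per kilobase in the Tnfaip3 transcript, 2.21 in Rela, 2.08 in Nfkb2, 1.96 in Nfkbid, 1.90 in Nfkbia and 1.36 in Relb, with a median of 1.05 over coding genes. It occurred 0.821 times per kilobase in Nfkbie, which fell most, and 0.729 in Nfkb1, 0.486 in Nfkbiz and 0.402 in Rel. These are counts of letters, and m6A was not measured in these samples.

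The members lie on 8 chromosomes of GRCm38. Nfkb2 (chromosome 19, 46304320 to 46312385, plus strand) and Rela (chromosome 19, 5637483 to 5648130, plus strand) share chromosome 19, and Nfkbid (30421732 to 30428746, plus strand) and Relb (19606217 to 19629438, minus strand) share chromosome 7. The others are Tnfaip3 on chromosome 10 (19000910 to 19015657, minus strand), Nfkbia on chromosome 12 (55489410 to 55492647, minus strand), Nfkbie on chromosome 17 (45555703 to 45563169, plus strand), Nfkbiz on chromosome 16 (55811375 to 55838899, minus strand), Nfkb1 on chromosome 3 (135584655 to 135691547, minus strand) and Rel on chromosome 11 (23736847 to 23770970, minus strand). Of the 10, Nfkb2 alone shares exonic bases with another listed gene, 299 bases (6.52% of its exons) with Psd on the other strand. Nfkb2 also shares 531 bases (11.6% of its exons) with an unlisted long non-coding RNA gene on the other strand. Whether reads were counted by strand is not given in the sources used here, and without strand those reads cannot be told apart. Psd had means of 3092 normalized counts in WT and 2847 in cKO.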

How the data were processed

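The data are mRNA-seq of sorted splenic NK cells, 3 WT and 3 cKO samples, grouped and numbered by their labels. The submitters' processing notes name HISAT2 2.0.5, featureCounts 1.5.0-p3 and DESeq2 1.16.1 with GRCm38, and the methods give other versions of HISAT2 and DESeq2. The authors deposited, for 14490 genes, each sample's signal, which is the gene count divided by that sample's DESeq2 size factor. Columns of the authors' own comparison (mean, fold change, test statistic and p-values) were not used.

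Values were taken as log2(value + 1). A filter requiring 1 or more in 3 or more samples left all 14490 genes. The genotype was then fitted with limma 3.58.1 (R 4.3.3), with a variance trend, two-sided, and adjusted across the table. The design had foreseen counts or such normalized values. For each member the exact permutation test ran through the 20 ways to assign samples to genotypes. Read totals on listed genes, from 55965515 to 71464042, make counting error smaller than 1% for each of the 10 genes, and the spread between samples is the larger error in all but Relb in cKO.

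The members and lists were chosen with earlier results of these data known, and no list was tested as a set. Besides the members, genes named are Mettl3, Nfkbib, Bcl3, cell markers and, per list, up to 4 rises and 4 falls past the threshold, without overlap and with a mean of 1 CPM or more. Other list genes (Chuk, Ikbkb, Ikbkg, Cyld, Il18rap, Bcl2a1a, Egr1, Jun and Psd) were named after their values were seen. Symbols matched 1 GENCODE M21 gene for 97.1% of genes. A cell marker covered by the naming rule is not reported here. The limma fit was also run on simulated counts in which 1 setting fixed the spread of all genes. That run could not check the scaling or the spread of the real samples. Between samples of a genotype, chi-square per degree of freedom was 5.50 or more, so no sample was a repeat of another within counting noise.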

Additional observations from a re-analysis of the deposited data

How the results depend on the processing

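Other settings changed the pseudocount (0.1), the filter (none, or 1 CPM in 3 samples), the scaling (equal totals), the test (limma-voom, or a block by replicate number) or the samples (omitting each replicate). A regression on GC content and length, with splines of 5 degrees of freedom, was added after seeing the data. Of 333 values computed under them, 320 kept their direction and side of the threshold or stayed within 1.5 times the count. Going without a filter repeated the main fit, since the main filter left all 14490 genes, so the values of that setting could not differ. The 8 called members kept their call and direction under all 13 settings. The number of members lower was 8 or 9 in all of them, and the number higher was 0 except with equal totals, which gave 1, Nfkb1, with a log2 fold change of 0.091.

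The log2 fold change of Tnfaip3 passed the threshold with a pseudocount of 0.1 (−0.083, limma adjusted p = 0.0495), with limma-voom (−0.083, adjusted p = 0.00634), with the replicate block (−0.083, adjusted p = 0.00794) and with GC content and length regressed out (−0.094, adjusted p = 0.0199). With a replicate left out it ran from −0.099 to −0.058 (adjusted p from 0.0331 to 0.297) and passed without WT replicate 3 (adjusted p = 0.0497) and without cKO replicate 2 (adjusted p = 0.0331). The cause was not tested. The labels do not say whether same-numbered samples are paired. Correlations of their deviations from the group means were −0.024, 0.12 and 0.045, against −0.10 to 0.062 for pairs with unlike numbers. The replicate block moved no member other than Tnfaip3 across the threshold.

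With equal totals, 9 genes of the signalling list were higher and 5 of the cell preparation list lower, against 4 and 11, and the genes called over the whole table numbered 3487 higher and 2016 lower, compared with 2576 and 2731 respectively. With a replicate left out, the cell preparation genes called lower numbered from 7 to 12. The lowest number was found without cKO replicate 1. With Nfkbia, Nfkbie and Tnfaip3 over Rela, Rel and Nfkb1 in place of all 10 genes, the log2 difference of the ratio of inhibitors to subunits was 0.11, against 0.20, and without Tnfaip3, a choice made after seeing the data, it was 0.080. Count tests with edgeR and DESeq2, listed among the alternatives, were not run, and the recovered reads were tested with limma-voom alone. Depth does not limit the members, and 3 samples per genotype leave the spread of a single gene poorly known.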
